A study of Mus musculus with 23 samples.

Results

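The GIMAP genes encode GTPases of immunity-associated proteins, a family of small GTP-binding proteins that are mostly anchored to inner membranes of the cell. The members were the genes whose platform annotation carries one of 8 symbols, Gimap8, Gimap9, Gimap4, Gimap6, Gimap7, Gimap1, Gimap5 and Gimap3. All 8 were measured, by 1 probe set each, among 24704 genes on 25428 probe sets. The family was chosen by the measured values of Gimap6, which had been called lower when ApoE-KO plasma was set against wildtype plasma on these arrays, so its values there are a description with no test.

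The 23 arrays measured total RNA of primary aortic endothelial cells of the mouse, the cells that line the largest artery. Confluent cells were kept for 48 h in endothelial medium in which plasma, at 10%, took the place of fetal calf serum. The plasma came from ApoE-KO mice (5 arrays), ApoE-Stab1-KO mice (6 arrays), ApoE-Stab2-KO mice (6 arrays) or wildtype mice (6 arrays), with C57BL/6J given as the strain. The knockouts are those of the plasma donors, and the labels give the cells themselves no genotype of this kind. The mice of the 3 ApoE-deficient groups had 8 weeks of Western Diet, whereas no diet is stated for wildtype donors. Genotype and diet therefore cannot be told apart wherever wildtype plasma is one side. Nothing in the labels says whether replicates were separate cultures, plasma pools or donors, so a p-value covers the spread among these arrays, and that spread may be technical. ApoE is the apolipoprotein through which remnant lipoproteins are cleared, and Stab1 and Stab2 encode scavenger receptors of the sinusoidal endothelium.

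In lymphocytes GIMAP proteins are known for their part in the survival of T and B cells. Gimap5 is needed for the survival of T cells in mice and rats, and it is also known from the endothelium of the liver sinusoids. Gimap1 is needed for mature T and B cells, and Gimap4 is known from apoptosis of T cells. Gimap6 binds GABARAPL2, a protein of the autophagosome, which links the family to autophagy. In the mouse the genes form 1 cluster on chromosome 6.

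The arrays were alike as a whole, with correlations of 0.992 to 0.997 between pairs of arrays over all genes. Values were log2 intensities with a median of 4.31. The identity of the cells was checked on marker lists. The mean of each marker in a group was set against the median of the array medians. All 14 endothelial markers measured had group means above that median in all 4 groups, among them Pecam1, Cdh5 and Kdr. So did 3 of 4 lymphatic markers and 3 of 6 platelet and red cell markers. For smooth muscle and fibroblast markers it was 2 of 5 each, and for macrophage markers 1 of 7. All 12 lymphocyte markers analysed here had group means below that median. Their mean level per array was 3.35 to 3.44 in ApoE-KO, 3.37 to 3.44 in ApoE-Stab1-KO, 3.34 to 3.42 in ApoE-Stab2-KO and 3.31 to 3.44 in wildtype plasma. Ptprc, the pan-leukocyte antigen CD45, averaged 2.98 over the 23 arrays. The GIMAP signal was thus measured beside lymphocyte markers at the dim end of the arrays. In bulk RNA, fewer cells of a type and less RNA per cell cannot be told apart.

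Of the 8 members, 6 lay above the median of their array on all 23 arrays, namely Gimap8, Gimap9, Gimap4, Gimap6, Gimap1 and Gimap5. Gimap7 and Gimap3 lay below it on all 23 arrays, with means over all arrays of 3.11 for Gimap7 and 3.42 for Gimap3. Levels of different genes on an array depend on their probes and are not set against each other here.

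Gimap6 had log2 levels of 8.72, 8.70, 8.54, 8.58 and 8.64 in cells under ApoE-KO plasma. In ApoE-Stab1-KO plasma its lowest, median and highest levels were 8.64, 8.79 and 8.96, and in ApoE-Stab2-KO plasma they were 8.52, 8.80 and 9.01. Under wildtype plasma they were 8.98, 9.01 and 9.05. All 5 ApoE-KO arrays and all 6 ApoE-Stab1-KO arrays lay below the lowest wildtype array, and 5 of 6 ApoE-Stab2-KO arrays did. The means were 8.64 ± 0.08 in ApoE-KO (SD, n = 5), 8.81 ± 0.12 in ApoE-Stab1-KO (SD, n = 6), 8.79 ± 0.18 in ApoE-Stab2-KO (SD, n = 6) and 9.01 ± 0.03 in wildtype plasma (SD, n = 6). The order from low to high was ApoE-KO, ApoE-Stab2-KO, ApoE-Stab1-KO and wildtype, and the pair in the middle did not differ beyond their spread. The wildtype arrays were also the least spread.

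The promoters of Gimap6, Gimap4 and Gimap1 are shown. Gimap4 and Gimap1 came next to Gimap6 in the size of the difference between ApoE-KO and wildtype plasma. The reason is that an ETS factor, Ets1, had the highest Pearson correlation with Gimap6 over the 23 arrays (0.79, beside 0.78 for Gramd1b, the next). Predicted, Riken, small RNA and olfactory receptor names were left out of that ranking. With the group means taken out, Ttyh1 (0.58) stood above Ets1 (0.55). The capitals mark the letters AGGAAG or CGGAAG, or their reverse complements, which hold the core that ETS factors bind. Each runs over the 300 bases around the start of the gene, most of them before it, and is from RefSeq, build GRCm38.p6, at chr6:48708195-48708494 on the minus strand for Gimap6, chr6:48684328-48684627 on the plus strand for Gimap4 and chr6:48738797-48739096 on the plus strand for Gimap1.
Gimap6: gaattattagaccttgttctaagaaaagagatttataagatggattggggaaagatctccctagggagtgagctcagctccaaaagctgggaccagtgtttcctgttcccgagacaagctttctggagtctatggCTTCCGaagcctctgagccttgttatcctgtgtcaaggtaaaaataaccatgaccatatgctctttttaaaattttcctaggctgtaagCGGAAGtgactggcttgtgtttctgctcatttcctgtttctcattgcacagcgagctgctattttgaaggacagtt
Gimap4: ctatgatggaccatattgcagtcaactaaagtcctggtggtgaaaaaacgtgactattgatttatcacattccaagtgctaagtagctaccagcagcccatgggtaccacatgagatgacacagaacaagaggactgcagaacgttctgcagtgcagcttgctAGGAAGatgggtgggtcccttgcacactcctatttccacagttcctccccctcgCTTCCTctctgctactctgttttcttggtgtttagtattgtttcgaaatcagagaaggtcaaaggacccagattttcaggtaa
Gimap1: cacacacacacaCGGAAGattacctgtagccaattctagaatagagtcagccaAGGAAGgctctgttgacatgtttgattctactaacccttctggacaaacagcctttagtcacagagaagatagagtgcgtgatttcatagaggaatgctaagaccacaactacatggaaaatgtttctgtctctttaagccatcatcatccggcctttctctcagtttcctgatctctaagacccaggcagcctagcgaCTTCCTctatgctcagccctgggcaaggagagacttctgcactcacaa
The letters AGGAAG stood on either strand in 35.35% of 32851 mouse promoters of the same length, and in 7 of the 9 promoters listed for the 8 members. Gimap6 was without them, as was the first of the 2 promoters of Gimap8. CGGAAG, which was added after the Gimap6 sequence had been seen, stood in 16.85% of all promoters and in 4 of the 9, those of Gimap6, Gimap1 and both of Gimap8. The Gimap6 match was thus fixed in advance, and the 2 Gimap8 promoters overlap each other. Nothing is therefore read from that count. Searches for the GATA core AGATAA (11.18% of all promoters), the sterol element TCACNCCAC (1.242%) and the interferon response element (GAAA, any 2 bases and GAAA again, 3.443%) found 0 of the 9. A match is a run of letters in this window, and no binding was measured.

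ApoE-KO against wildtype plasma is the comparison from which the family was proposed. By limma with the adjusted p under 0.05, 1 of 8 members was called, Gimap6, against 0.53% of all genes, and nothing is read from that count. At an unadjusted p under 0.05 stood 3 of 8, against 10.5% of all genes. Gimap6 was lower by 0.38 ± 0.07 on the log2 scale (difference −0.38, SE, 95% interval −0.52 to −0.23), a level 0.771 times that under wildtype plasma. In this comparison 1 member, again Gimap6, had arrays that did not overlap, against 1.98% of all genes. The median difference of the 8 members was −0.07, beside 0.0026 over all genes, and 5 of 8 differences were below 0, as were 48.8% over all genes.

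Gimap4 had levels of 7.48, 7.58, 7.37, 7.67 and 7.34 in ApoE-KO plasma, and its lowest, median and highest levels were 7.57, 7.74 and 7.86 in wildtype plasma. Of the 5 ApoE-KO arrays 3 lay below all wildtype arrays. The difference was −0.25 ± 0.07 (SE, 95% interval −0.39 to −0.11), and Gimap4 was not called.

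Gimap1 had levels of 6.95, 7.29, 7.30, 7.24 and 7.40 in ApoE-KO plasma, and its lowest, median and highest levels were 7.38, 7.50 and 7.54 in wildtype plasma. The first ApoE-KO array was the lowest of all, and 4 of the 5 lay below all wildtype arrays. The difference was −0.24 ± 0.07 (SE, 95% interval −0.39 to −0.09), or −0.17 without ApoE-KO replicate 1, and was not called.

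Gimap8, which encodes the family member with several GTP-binding domains, had levels of 6.98, 6.99, 6.74, 6.97 and 6.87 in ApoE-KO plasma, and its lowest, median and highest levels were 6.88, 7.03 and 7.20 in wildtype plasma. The groups overlapped, and the difference was −0.13 ± 0.11 (SE), with a 95% interval of −0.34 to 0.09, or −0.08 without ApoE-KO replicate 3.

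Gimap5 had levels of 8.72, 8.77, 8.67, 8.74 and 8.57 in ApoE-KO plasma, against a lowest, median and highest of 8.52, 8.64 and 8.79 in wildtype plasma. The ApoE-KO arrays lay within the wildtype range. Its difference was 0.05 ± 0.07 (SE, 95% interval −0.09 to 0.19), and that interval bounds how far its level may differ either way.

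Gimap9 had levels of 6.41, 6.32, 6.28, 6.60 and 6.37 in ApoE-KO plasma, and its lowest, median and highest levels were 6.12, 6.32 and 6.52 in wildtype plasma. The difference was 0.09 ± 0.08 (SE), or 0.04 without ApoE-KO replicate 4. The dim gene Gimap7 lay between 3.09 and 3.26 in ApoE-KO and between 3.01 and 3.38 in wildtype plasma, and differed by 0.05 ± 0.05 (SE). Gimap3, also dim, lay between 3.18 and 3.50 in ApoE-KO and between 3.33 and 3.48 in wildtype plasma, and differed by −0.02 ± 0.08 (SE). The arrays of both groups overlapped for these 3 members.

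**Figure D1:**
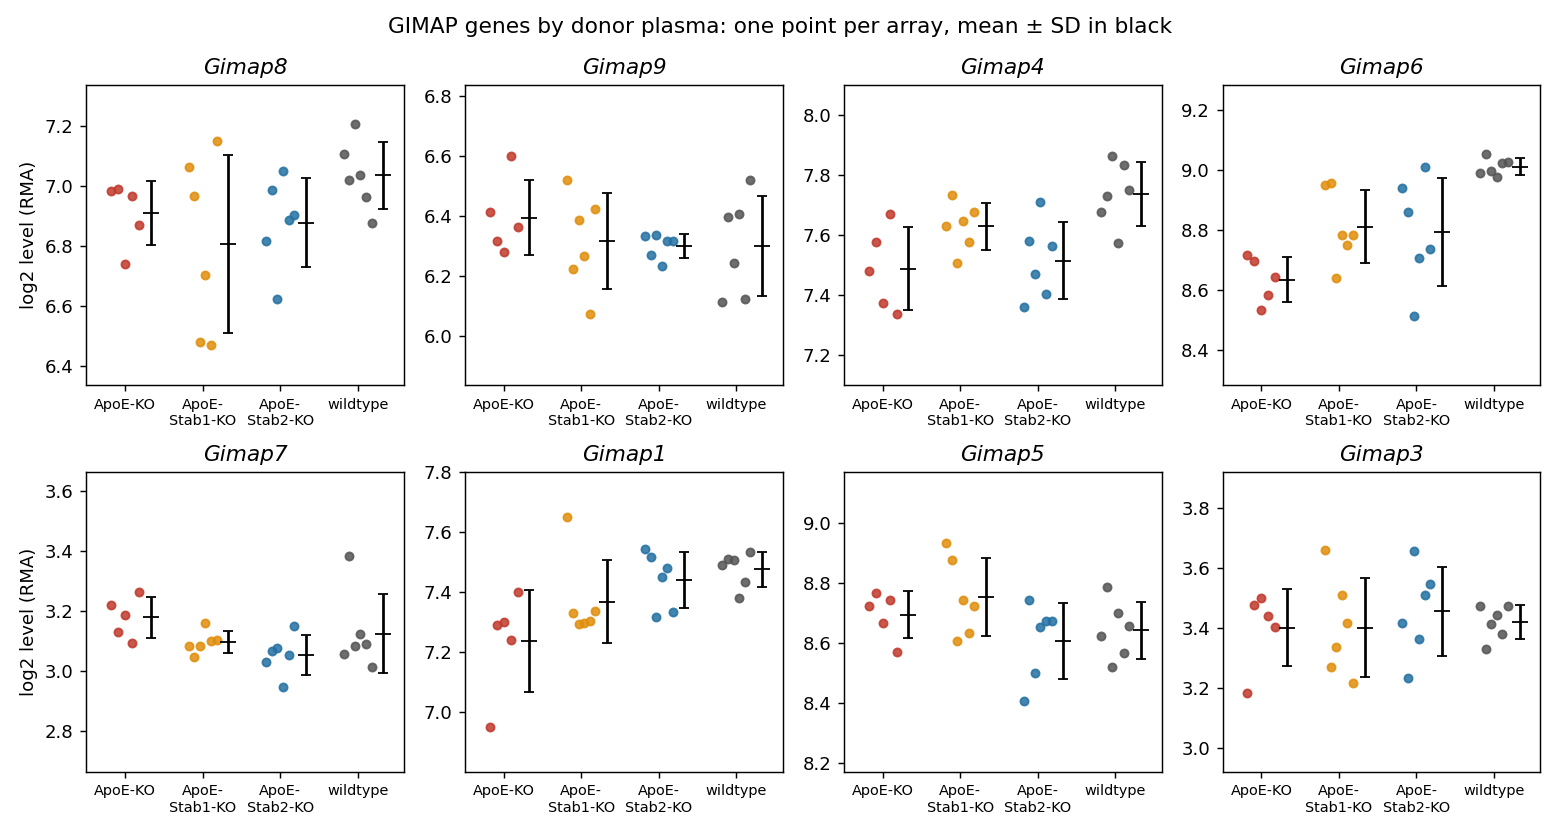
Log2 level of each of the 8 GIMAP genes on each of the 23 arrays, with groups from left to right ApoE-KO, ApoE-Stab1-KO, ApoE-Stab2-KO and then wildtype plasma. Points are arrays and bars show the group mean with its SD. For Gimap6 the wildtype arrays sit at 8.98 to 9.05, above all 5 ApoE-KO arrays at 8.54 to 8.72.

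The plasmas of the double knockouts were set against the same 6 wildtype arrays, so the 3 comparisons with wildtype share them and the values are given side by side. These wildtype arrays took part in the choice of the family, so the counts describe the members and are no test. For ApoE-Stab1-KO plasma 0 of 8 members were called by limma, against 0.364% of all genes, and 2 had an unadjusted p under 0.05, against 11.3%. For ApoE-Stab2-KO plasma 0 of 8 were called, against 0.178% of all genes, and 2 had an unadjusted p under 0.05, against 8.49%. The Gimap6 differences were −0.38 in ApoE-KO, −0.20 in ApoE-Stab1-KO and −0.22 in ApoE-Stab2-KO plasma, with SEs of 0.07. Its 95% intervals were −0.34 to −0.06 for ApoE-Stab1-KO and −0.36 to −0.08 for ApoE-Stab2-KO plasma. The ApoE-Stab1-KO arrays did not overlap with the wildtype arrays for 1 of 8 members, Gimap6, against 0.854% of all genes. For ApoE-Stab2-KO plasma 0 of 8 members had arrays apart, against 1.15% of all genes.

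Gimap4 had a lowest, median and highest level of 7.51, 7.64 and 7.74 in ApoE-Stab1-KO plasma and of 7.36, 7.52 and 7.71 in ApoE-Stab2-KO plasma, against 7.57, 7.74 and 7.86 in wildtype plasma. Its differences from wildtype were −0.11 ± 0.07 in ApoE-Stab1-KO and −0.22 ± 0.07 in ApoE-Stab2-KO plasma (SE), and 4 of the 6 ApoE-Stab2-KO arrays lay below all wildtype arrays. Gimap4 in ApoE-Stab2-KO plasma was thus nearly as far from wildtype as in ApoE-KO plasma.

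Gimap1 had a lowest, median and highest level of 7.29, 7.32 and 7.65 in ApoE-Stab1-KO plasma and of 7.32, 7.47 and 7.54 in ApoE-Stab2-KO plasma. Of the ApoE-Stab1-KO arrays 5 lay below all wildtype arrays and 1, replicate 1, lay above them all. The differences were −0.11 ± 0.07 for ApoE-Stab1-KO and −0.04 ± 0.07 for ApoE-Stab2-KO plasma (SE). Gimap8 was the most spread member in ApoE-Stab1-KO plasma, with a lowest, median and highest level of 6.47, 6.83 and 7.15, against 6.62, 6.90 and 7.05 in ApoE-Stab2-KO plasma. Its differences from wildtype were −0.23 ± 0.10 for ApoE-Stab1-KO and −0.16 ± 0.10 for ApoE-Stab2-KO plasma (SE). For Gimap9 the arrays spanned 6.07 to 6.52 in ApoE-Stab1-KO and only 6.23 to 6.34 in ApoE-Stab2-KO plasma, against 6.12 to 6.52 in wildtype plasma. The differences from wildtype of the other 4 members, Gimap9, Gimap7, Gimap5 and Gimap3, lay between −0.07 and 0.11 in both comparisons. The median member difference was −0.07 for ApoE-Stab1-KO and −0.05 for ApoE-Stab2-KO plasma, beside 0.0037 and −0.0020 over all genes.

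**Figure D2:**
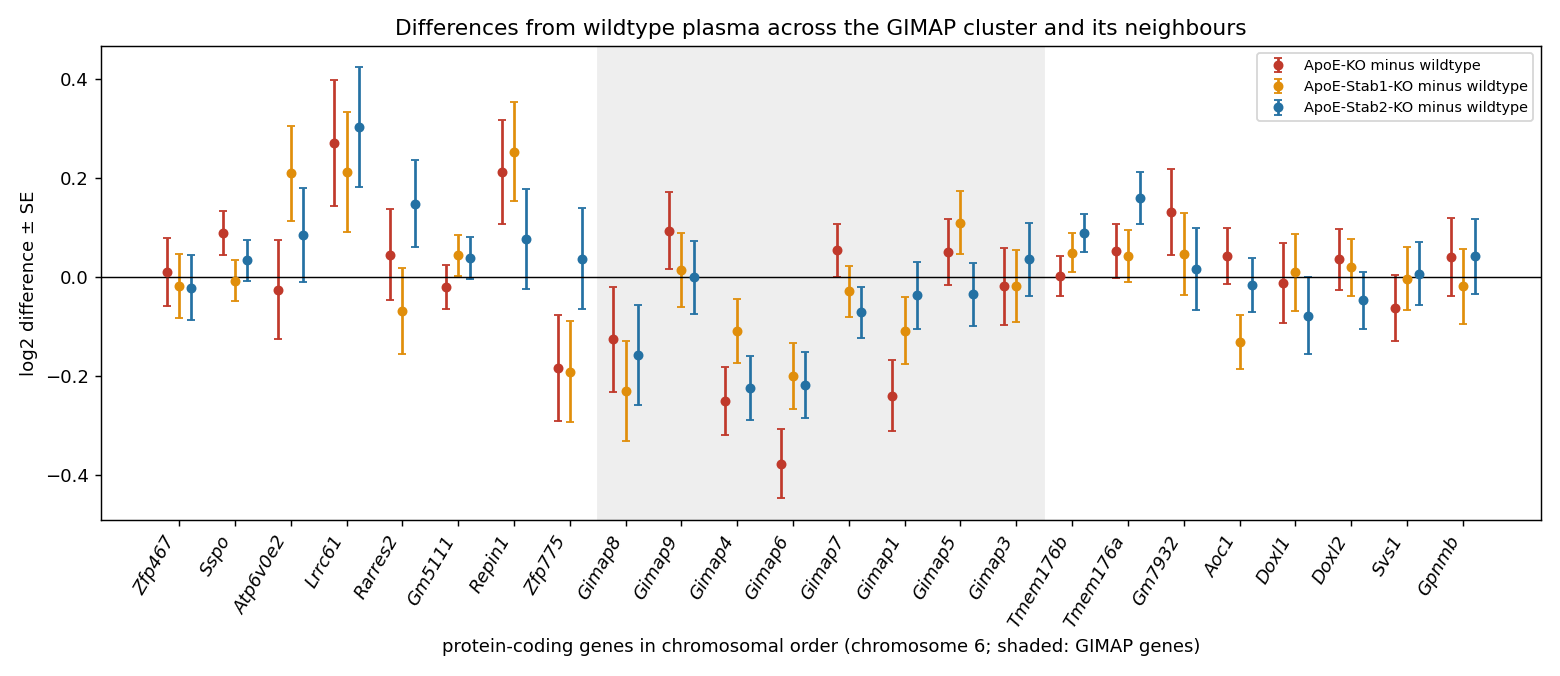
Log2 difference from wildtype plasma for the 8 GIMAP genes and the 8 neighbours on each side, in their order along chromosome 6, with plasma of each ApoE-deficient genotype as a separate series. Points are differences and error bars are ± 1 SE; the GIMAP genes are shaded. Gimap6 lies at −0.38, −0.20 and −0.22 in that order of genotypes (ApoE-KO, ApoE-Stab1-KO, ApoE-Stab2-KO), and Lrrc61, among the neighbours before the cluster, at 0.27, 0.21 and 0.30.

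The 16 neighbours of the cluster, 8 on each side in the RefSeq gene order, were all measured. In each of the 6 pairwise comparisons limma called 0 of 16, with 1 to 4 at an unadjusted p under 0.05. Over all genes these comparisons called 0.00405% to 0.53%, and 5.57% to 11.3% stood at an unadjusted p under 0.05. The median difference of the neighbours in ApoE-KO against wildtype plasma was 0.04, with 5 of 16 below 0, against 48.8% of all genes. Lrrc61 had the smallest p of them there, with a difference of 0.27 ± 0.13 (SE). Within the cluster Gimap9, which lies before Gimap4, had a difference of 0.09, and Gimap7, between Gimap6 and Gimap1 and below the array median throughout, had one of 0.05.

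Comparisons among the 3 ApoE-deficient plasmas hold no wildtype array. The 2 against ApoE-KO share the ApoE-KO arrays from which the family was proposed, so their values and counts describe the members and are no test. Against ApoE-KO plasma, limma called 0 of 8 members for ApoE-Stab1-KO plasma, against 0.00405% of all genes, and 2 of 8 had an unadjusted p under 0.05, against 5.57%. For ApoE-Stab2-KO plasma limma called 0 of 8, against 0.0243% of all genes, and 3 of 8 had an unadjusted p under 0.05, against 8.36%. No member had arrays apart from all ApoE-KO arrays in either comparison, against 0.368% of all genes for ApoE-Stab1-KO and 1.33% for ApoE-Stab2-KO plasma. Gimap6 was 0.18 ± 0.07 higher in ApoE-Stab1-KO plasma (SE, 95% interval 0.03 to 0.32) and 0.16 ± 0.07 higher in ApoE-Stab2-KO plasma (SE, 95% interval 0.01 to 0.30). Of 6 arrays each, 5 of ApoE-Stab1-KO and 4 of ApoE-Stab2-KO plasma lay above all ApoE-KO arrays. Gimap1 differed by 0.13 ± 0.07 in ApoE-Stab1-KO and by 0.20 ± 0.07 in ApoE-Stab2-KO plasma (SE), with 95% intervals of −0.02 to 0.28 and 0.06 to 0.35. Without ApoE-KO replicate 1, its lowest array, the Gimap1 differences were 0.06 for ApoE-Stab1-KO and 0.13 for ApoE-Stab2-KO plasma. Gimap4 differed by 0.14 ± 0.07 in ApoE-Stab1-KO and by 0.03 ± 0.07 in ApoE-Stab2-KO plasma (SE). Gimap7 differed by −0.12 ± 0.05 in ApoE-Stab2-KO plasma (SE), at levels below the array median.

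ApoE-Stab2-KO against ApoE-Stab1-KO plasma uses neither the ApoE-KO nor the wildtype arrays for its difference, and was tested. The spread behind its SEs was pooled over all 23 arrays, those of ApoE-KO and wildtype plasma among them. By limma 0 of 8 members were called, against 0.0486% of all genes, and 1 had an unadjusted p under 0.05, against 11% of all genes. Arrays were apart for 0 of 8, against 0.806%. That member was Gimap5, with a lowest, median and highest level of 8.41, 8.66 and 8.74 in ApoE-Stab2-KO plasma, against 8.61, 8.73 and 8.93 in ApoE-Stab1-KO plasma. The arrays overlapped, the difference was −0.14 ± 0.06 (SE, 95% interval −0.28 to −0.01), and the limma adjusted p was 0.409. Gimap6 differed by −0.02 ± 0.07 (SE, limma adjusted p = 0.957), with a 95% interval of −0.16 to 0.12. Its SD was 0.18 in ApoE-Stab2-KO and 0.12 in ApoE-Stab1-KO plasma, against 0.08 in ApoE-KO and 0.03 in wildtype plasma. With that pooled spread, the interval may be too narrow. Gimap4 differed by −0.11 ± 0.07 (SE, limma adjusted p = 0.537) and Gimap1 by 0.07 ± 0.07 (SE, limma adjusted p = 0.759). For Gimap8, Gimap9, Gimap7 and Gimap3 the differences were 0.07, −0.02, −0.04 and 0.05, with limma adjusted p-values of 0.852, 0.968, 0.825 and 0.848.

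**Figure D3:**
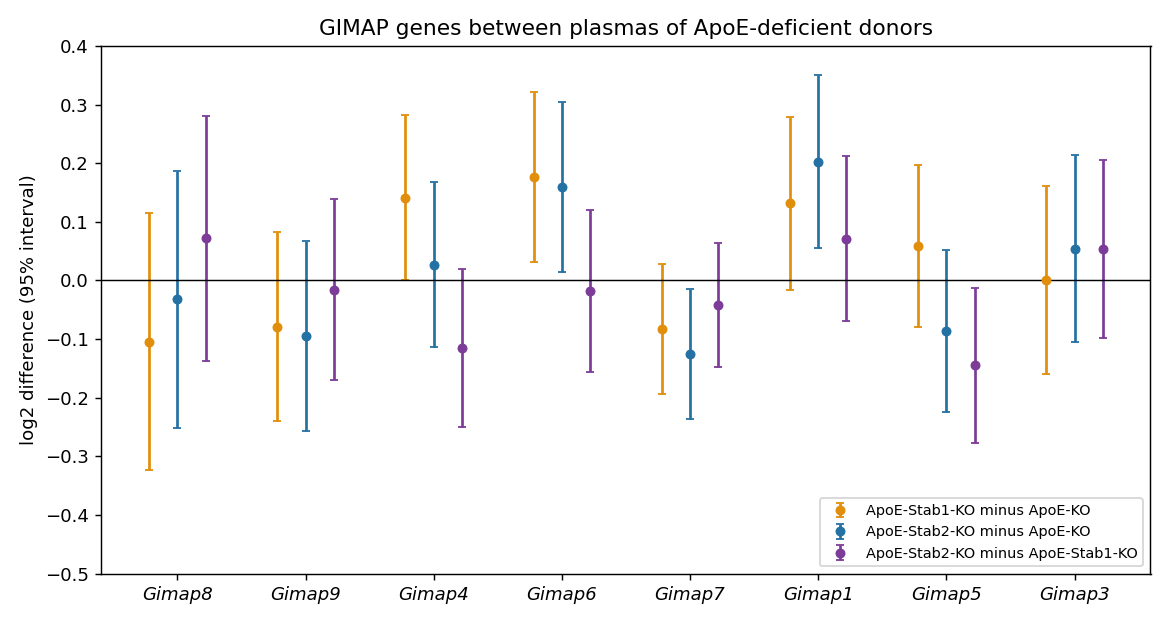
Log2 differences of the 8 GIMAP genes between the plasmas of ApoE-deficient donors: ApoE-Stab1-KO minus ApoE-KO, ApoE-Stab2-KO minus ApoE-KO and ApoE-Stab2-KO minus ApoE-Stab1-KO. Error bars are 95% intervals. Gimap6 lies at 0.18, 0.16 and −0.02 in that order.

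Over the 23 arrays the members did not move as 1 group. Gimap7 and Gimap3 lay below the array median throughout, so their correlations carry little information. Pearson correlations with Gimap6 were 0.61 for Gimap1, 0.49 for Gimap4 and 0.48 for Gimap8, and between −0.14 and 0.12 for Gimap9, Gimap3, Gimap7 and Gimap5. With the group means taken out, they were 0.38 for Gimap1, 0.48 for Gimap8 and 0.42 for Gimap5, and 0.00073 for Gimap4. The correlation of Gimap4 with Gimap6 thus showed only with the group means left in, and no interval was computed for it. The correlation of Gimap8 with Gimap5 was 0.53 and that with Gimap4 was 0.50 with the group means taken out. The points share the arrays, their normalization and, for similar genes, possibly cross-hybridizing probes, which were not checked because the probe sequences were not used here. These correlations are descriptions and carry no p.

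**Figure D4:**
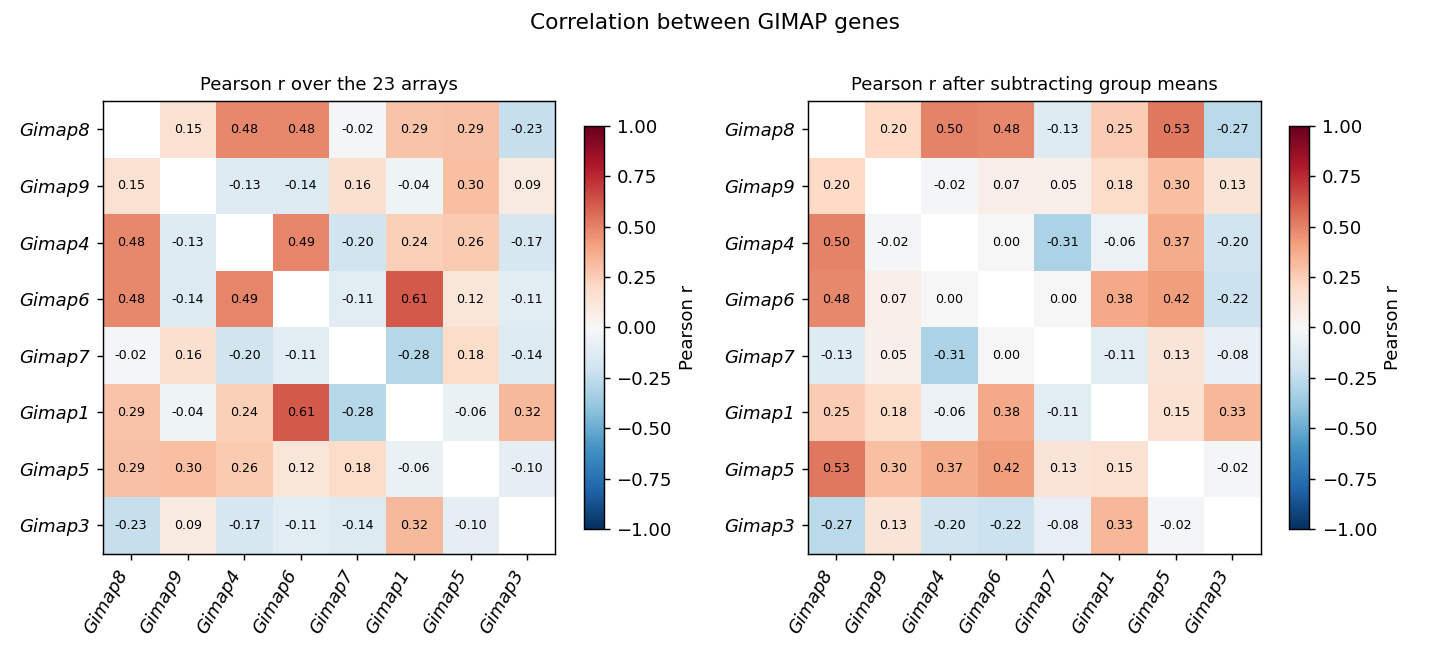
Pearson correlations between the 8 GIMAP genes over the 23 arrays, with the group means left in and with the group means taken out. The correlation of Gimap6 with Gimap1 is 0.61 with the group means left in and 0.38 without them, and that of Gimap6 with Gimap4 is 0.49 and 0.00073.

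The genes most like Gimap6 were taken by Pearson correlation over the 23 arrays, leaving out predicted (Gm), Riken, small RNA and olfactory receptor names. Among the genes left, the first 5 were Ets1 (0.79), Gramd1b (0.78), Ttyh1 (0.78), Abca1 (0.75) and Adamts9 (0.74). With the group means taken out the values were 0.55 for Ets1, 0.51 for Gramd1b, 0.58 for Ttyh1, 0.39 for Abca1 and 0.41 for Adamts9. Among the members Gimap1 came first, at rank 86 of all genes with no name left out, ahead of Gimap4 at 473 and Gimap8 at 534. Ets1 encodes a transcription factor of endothelium and lymphocytes, Abca1 a transporter that exports cholesterol from cells, Gramd1b a sterol transfer protein and Adamts9 a secreted metalloprotease. Ets1 had levels of 9.52, 9.50, 9.42, 9.54 and 9.41 in ApoE-KO plasma, and a mean of 9.65 ± 0.04 in wildtype plasma (SD, n = 6). Its arrays lay below all wildtype arrays in each of the 3 ApoE-deficient plasmas, which were set against the same 6 wildtype arrays. Arrays did not overlap for 1.98% of all genes in ApoE-KO, 0.854% in ApoE-Stab1-KO and 1.15% in ApoE-Stab2-KO against wildtype plasma. The difference of ApoE-KO from wildtype plasma was −0.17 ± 0.04 (SE) for Ets1, and Ets1 was not called (limma adjusted p = 0.0725). Gramd1b, Ttyh1, Abca1 and Adamts9 differed by −0.26, −0.38, −0.44 and −0.26, and all 4 were called. For Abca1 the arrays overlapped: ApoE-KO replicate 1 stood at 8.37, within the wildtype range of 8.29 to 8.50. The other ApoE-KO arrays lay at 7.73 to 7.89, and the Abca1 difference was −0.55 without replicate 1. With 1 array left out in turn, the call held in 11 of 11 fits for Ttyh1 and Abca1, in 7 of 11 for Adamts9 and in 1 of 11 for Gramd1b, that without wildtype replicate 4. Ets1 was called in 0 of 11 such fits. Of 9 other settings, Abca1 was called in 8, and not with only the arrays compared in the fit (limma adjusted p = 0.0852). Gramd1b was called in 7 of 9, Ttyh1 and Adamts9 in 9 of 9 and Ets1 in 2 of 9, with array weights and with genes above the median level. These genes were picked for their likeness to a gene that was itself picked for this difference, so their differences are no independent result.

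**Figure D5:**
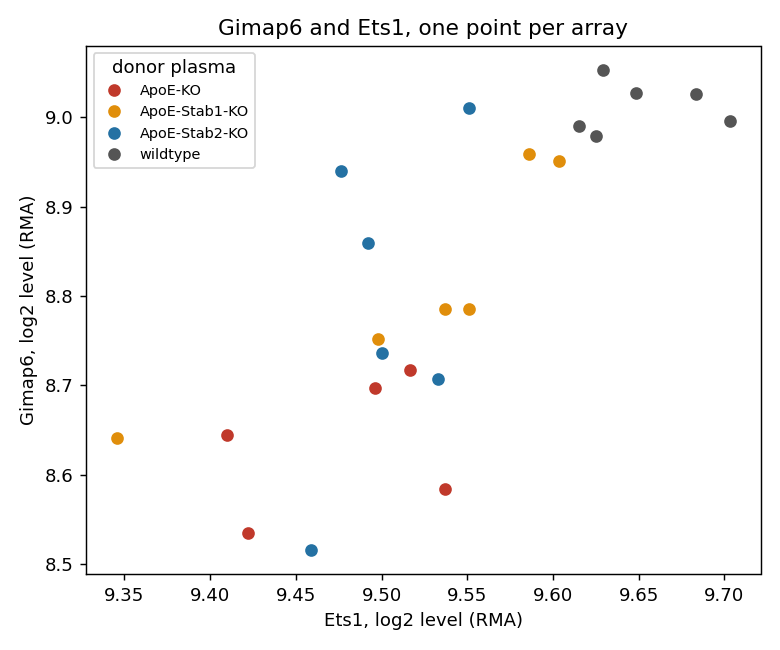
Log2 level of Gimap6 against that of Ets1 on the 23 arrays, coloured by the plasma group. The Pearson correlation is 0.79 over all arrays and 0.55 with the group means taken out, and the 6 wildtype arrays lie at the upper right.

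Lists around the family were read for the same plasmas. Over all genes the 6 pairwise comparisons called 0.00405% to 0.53%, and 5.57% to 11.3% stood at an unadjusted p under 0.05. Of the autophagy partners (GABARAP and LC3 proteins and their companions), all 8 were measured and 0 were called by limma in any pairwise comparison, with 0 at an unadjusted p under 0.05 in any of them. Gabarapl2, the partner of Gimap6, differed by −0.19 ± 0.14 in ApoE-KO against wildtype plasma (SE). Of the BCL2 family and GSK3 genes that have been named with Gimap3 or Gimap5, 8 of 9 were measured and limma called 0 in any pairwise comparison, with 0 to 2 at an unadjusted p under 0.05. The one with the smallest p in ApoE-KO against wildtype plasma was Bcl2l1, an inhibitor of apoptosis, at −0.10 ± 0.06 (SE). In ApoE-Stab1-KO against wildtype plasma it was Bcl2l11, a promoter of apoptosis, at −0.32 ± 0.10 (SE).

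The interferon-inducible GTPases, another family of immune GTP-binding proteins, gave 0 called by limma in any pairwise comparison of 14 measured of 18. At an unadjusted p under 0.05 stood 0 in ApoE-KO against wildtype plasma, against 10.5% of all genes. In ApoE-Stab2-KO against ApoE-Stab1-KO plasma 4 did, against 11% of all genes. Gbp7 differed by −0.33 ± 0.11 in that comparison (SE, limma adjusted p = 0.211). Their median difference in ApoE-KO against wildtype plasma was −0.04, beside −0.07 for the 8 GIMAP members and 0.0026 over all genes. Of the 16 endothelial transcription factors 0 were called by limma in ApoE-KO against wildtype plasma, against 0.53% of all genes. At an unadjusted p under 0.05 stood 7 of 16, against 10.5% of all genes. Their median difference was −0.10, and 13 of 16 differences were below 0, against 48.8% of all genes. Beside Ets1, Sox18 differed by −0.34 ± 0.09 (SE, limma adjusted p = 0.122) and Lmo2 by −0.20 ± 0.08 (SE, limma adjusted p = 0.313). Against wildtype, an unadjusted p under 0.05 was met by 4 of 16 in ApoE-Stab1-KO plasma (11.3% of all genes). In ApoE-Stab2-KO plasma it was met by 2 of 16 (8.49% of all genes). Differences below 0 numbered 14 and 12 of 16, against 48.2% and 51% of all genes. The list holds Ets1, and its counts are a description.

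The mean level of the endothelial markers was 11.08 ± 0.07 in ApoE-KO (SD, n = 5), 11.13 ± 0.05 in ApoE-Stab1-KO (SD, n = 6), 11.16 ± 0.04 in ApoE-Stab2-KO (SD, n = 6) and 11.16 ± 0.03 in wildtype plasma (SD, n = 6). Per array it lay between 10.98 and 11.17 in ApoE-KO and between 11.14 and 11.20 in wildtype plasma. In ApoE-KO against wildtype plasma 2 of 14 were called lower by limma, against 0.19% of all genes, and 0 higher, against 0.34%. The median difference of the 14 was −0.06, and 13 of 14 differences were below 0, against 48.8% of all genes. Egfl7, a secreted endothelial factor, fell by 0.27 ± 0.04 (SE, limma adjusted p = 0.00136) and Cldn5, a tight junction protein, fell by 0.27 ± 0.06 (SE, limma adjusted p = 0.0459). The Cldn5 call held in 1 of the 11 fits that left out 1 array, that without ApoE-KO replicate 4, and was lost with the replicate block. Its limma adjusted p ran from 0.0146 to 0.151 over the alternatives, whereas Egfl7 was called in all 11. In ApoE-Stab1-KO against wildtype plasma 1 of 14 was called, Egfl7, against 0.364% of all genes. There Egfl7 fell by 0.21 ± 0.04 (SE, limma adjusted p = 0.0122, and 0.0712 with only the arrays compared in the fit). In the other 4 pairwise comparisons limma called 0, against 0.00405% to 0.178% of all genes. At an unadjusted p under 0.05 stood 1 to 4 of 14 in those, against 5.57% to 11% of all genes. For ApoE-KO against wildtype plasma it was 4 of 14, against 10.5%, and for ApoE-Stab1-KO against wildtype plasma 6 of 14, against 11.3%. Differences from wildtype were below 0 for 8 of 14 in ApoE-Stab1-KO plasma, against 48.2% of all genes. In ApoE-Stab2-KO plasma 10 of 14 were, against 51%. The part of the endothelial markers in the GIMAP values was not tested. Lymphocyte, macrophage, platelet and red cell, lymphatic, smooth muscle and fibroblast markers gave 0 called by limma in any pairwise comparison, against 0.00405% to 0.53% of all genes. At most 3 of a list stood at an unadjusted p under 0.05, against 5.57% to 11.3% of all genes. Of 7 macrophage markers measured 1, Cd68, a lysosomal protein, had group means above the median of the array medians. Cd68 averaged 11.29 in ApoE-KO, 11.10 in ApoE-Stab1-KO, 11.17 in ApoE-Stab2-KO and 11.13 in wildtype plasma. It differed by 0.15 ± 0.05 in ApoE-KO against wildtype plasma (SE, limma adjusted p = 0.173) and by −0.19 ± 0.05 in ApoE-Stab1-KO against ApoE-KO plasma (SE, limma adjusted p = 0.547). In the second comparison its arrays did not overlap, as was so for 0.368% of all genes. Its part in the GIMAP values was not tested.

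The F-test over the 4 plasma groups holds the comparison from which the family was proposed and is likewise a description. By it 1 of 8 members was called, Gimap6, against 0.546% of all genes, and 3 had an unadjusted p under 0.05, against 11.9%. That call was lost in 17 of the 23 fits that left out 1 array, and it held when the array left out was ApoE-Stab1-KO replicate 1, 2 or 3 or ApoE-Stab2-KO replicate 1, 3 or 5.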

How the data were processed

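Values came from 1 deposited table of 25428 probe sets on 23 arrays. Per the labels, total RNA was turned into biotinylated cRNA by the Affymetrix protocol. Per the submitters' processing notes, the authors made the deposited log2 values with RMA, which corrects background, normalizes by quantiles and summarizes probe sets, so a shift of every gene at once would be lost. The version of RMA is not stated (not given in the sources used here). In ApoE-KO replicate 1, 4.21% of values lay on the binary grid of decimals that held 100% of values in each other array.

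Probe sets were named from the platform annotation: 24705 had 1 symbol, 0 several and 723 none, and the brighter of 2 probe sets of a symbol was kept. limma 3.58.1 in R 4.3.3 fitted 1 mean per group over all 23 arrays (lmFit, eBayes, 19 residual and 4.19 prior degrees of freedom). The Benjamini-Hochberg adjustment ran over 24704 genes in each of 6 comparisons and the F-test, and a gene with an adjusted p under 0.05 is called. The number of arrays limits the precision: the median SE of a difference was 0.07. The fit was tested on simulated data. Promoters were matched to RefSeq symbols in Python 3.11.15, and figures drawn with matplotlib 3.10.9.

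The members, the lists and the named genes (every member, the list genes called or with the 3 smallest p-values, the 5 genes most like Gimap6) were chosen with earlier results of these data known. Alternatives were another normalization, filter, call rule, weighting or choice of samples. Nothing in the labels pairs samples by replicate number, and the main fit used no pairing. Over all genes, deviations of same-numbered samples correlated between −0.10 and 0.11. Whether same-numbered samples shared a run or culture was not tested.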

Additional observations from a re-analysis of the deposited data

Results flagged for a closer look

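Gimap7 stood at 3.38 in wildtype replicate 2, against 3.01 to 3.12 in the other 5 wildtype arrays. The gap to the nearest was 0.699 of the range of the group, above Dixon's critical value for 6 samples. Without that array the Gimap7 difference was 0.11 in ApoE-KO plasma (0.05 with it) and 0.02 in ApoE-Stab1-KO plasma (−0.03 with it). Gimap7 lay below the array median on all arrays.

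Gimap1 stood at 7.65 in ApoE-Stab1-KO replicate 1, against 7.29 to 7.34 in the other 5 arrays, a gap of 0.885 of the range. Without that array the Gimap1 difference was −0.16 for ApoE-Stab1-KO against wildtype plasma (−0.11 with it) and 0.13 for ApoE-Stab2-KO against ApoE-Stab1-KO plasma (0.07 with it). The same array had the lowest array weight of the 23, 0.377. In all, 2 of 32 groups of values stood apart in this way, and chance flags about 1 in 20 groups.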

How the results depend on the processing

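With ApoE-KO against wildtype plasma, 1 member, Gimap6, was called in all 11 fits that left out 1 array and in 9 of 10 other settings, and 0 were called when a fold of at least 1.5 was also asked for. Its difference lay between −0.40 and −0.35 with 1 array left out and between −0.38 and −0.37 in the other settings. Gimap6 was picked for this call on these same arrays, so the refits describe it and are no test of it. In the other 5 pairwise comparisons 0 members were called in every setting run. By the F-test 1 member was called in 8 other settings, and 0 to 1 with 1 array left out. With 1 array left out, the Gimap1 difference lay between −0.28 and −0.17 for ApoE-KO against wildtype plasma and between 0.13 and 0.24 for ApoE-Stab2-KO against ApoE-KO plasma. Of the same-numbered pairs, 1 of 33 correlated above 0.1 over all genes. Gimap6 was lowest in replicate 3 of each ApoE-deficient group (8.54 in ApoE-KO, 8.64 in ApoE-Stab1-KO and 8.52 in ApoE-Stab2-KO plasma). In wildtype plasma it was lowest in replicate 4 (8.98). With the replicate block the count of members called was 1 for ApoE-KO against wildtype plasma, 0 in the other 5 and 1 by the F-test. Over all genes, the count of calls for ApoE-KO against wildtype plasma was 131, and 212 with array weights, 80 with only the arrays compared, 12 with the fold and 55 to 109 with 1 array left out. For ApoE-Stab1-KO against wildtype plasma it was 90, and 151 above the median level, 21 with only the arrays compared, 11 with the fold and 54 to 124 with 1 array left out. For ApoE-Stab2-KO against wildtype plasma it was 44, and 4 with the fold and 20 to 41 with 1 array left out. For ApoE-Stab1-KO against ApoE-KO plasma it was 1, and 0 to 2 in all settings. For ApoE-Stab2-KO against ApoE-KO plasma it was 6, and 2 above the median level, 18 with array weights, 0 with the replicate block, 1 with only the arrays compared or the fold and 0 to 12 with 1 array left out. For ApoE-Stab2-KO against ApoE-Stab1-KO plasma it was 12, and 21 with trend and robust fitting, 4 with only the arrays compared, 6 with the fold, 2 with protein-coding genes only (chosen after seeing the data) and 8 to 37 with 1 array left out. For the F-test it was 135, and 88 with the replicate block and 87 to 197 with 1 array left out. The cause of these shifts was not tested. Gimap7 and Gimap3 are dim, so their differences carry little information.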
